A study of Canis lupus familiaris with 10 samples.

Results

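FOXF1 and 9 other transcription factor genes of mesenchyme were followed in cells cultured from hemangiosarcoma, a tumor of vessel-forming cells, of 10 dogs. The members, taken by gene name, were FOXF1, FOXF2, FOXC1, FOXC2, TCF21, TWIST1, TWIST2, PRRX1, WT1 and NR2F2. The array named 8 of these 10 genes, with 13 of its 42924 probe sets, and FOXF2 and FOXC1 were not analysed here because no probe set carried their names. FOXF1 was chosen by its measured breed difference in these same arrays, and the other members were chosen with earlier results on outlying cultures and shared changes in view, so those values are given as descriptions. Each culture came from a hemangiosarcoma of the spleen and was taken at the earliest passages at hand. Its total RNA was labelled, and the resulting cRNA was hybridized to 1 Affymetrix Canine_2 array. Golden Retrievers gave 6 cultures, from Tucker, Journey, Frog, ChadG8, ChadG6 and ChadG4. Other pure breeds, grouped as non-Golden Retriever, gave 3 cultures, from ChadP9 (labelled Portugese Water Dog), Dal4 (labelled Dalmation) and Joey (a Rottweiler by its title, with the dog's name in the breed field). DD1, labelled a Golden Retriever mix, is the F1 dog of a Golden Retriever and a Great Pyrenees. No dog received an agent or carries an engineered allele by the labels, ages are not in the labels, and Frog and Journey are relatives according to the study. With 1 array per dog, the spread between dogs includes any error of culture and array.

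Forkhead factors bind DNA through a winged-helix domain, and FOXF1 acts in the mesenchyme around gut, lung and embryonic vessels, where hedgehog signals from neighboring epithelium induce it. TCF21, TWIST1 and TWIST2 are basic helix-loop-helix factors that bind DNA as dimers with the widely expressed E proteins, and ID proteins block such dimers. TCF21 and the zinc finger factor WT1 are both needed for the spleen to form. PRRX1 is a homeobox factor of limb and facial mesenchyme and of fibroblasts, and NR2F2 is a nuclear receptor known for vein identity and for its role in mesenchyme.

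Values are log2 signals from the robust multiarray average (RMA), in which 1 unit is a doubling of signal. Signals of different probe sets cannot be ranked against each other, so levels are compared only between cultures. A probe set was called above the dim range of an array where it lay above the 40th percentile of all its probe sets, which was at 5.02 to 5.16 on the 10 arrays. Of the 13 member probe sets, 7 lay above it on at least 3 of the 9 purebred arrays and entered the breed test, which held 26787 probe sets in all. A bulk culture cannot tell fewer cells of a type from less RNA per cell.

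As to the cells themselves, 6 of 13 endothelial markers lay above the 40th percentile on every array and 4 on no array. PECAM1 (4.03 to 4.72), an adhesion molecule of endothelium, was among the latter, whereas KDR (6.51 to 8.25), a receptor for vascular endothelial growth factor, was above it on all 10 arrays. Among fibroblast markers, 8 of 11 lay above it on all arrays, as did 5 of 9 for smooth muscle and pericytes, 3 of 9 for myeloid cells, 1 of 5 for lymphoid cells, 1 of 2 for mesothelium and 0 of 4 for epithelium. Mean endothelial marker signal was 5.17 to 5.71 in Golden Retrievers and 5.08 to 5.65 in non-Golden Retrievers, and mean fibroblast marker signal was 9.79 to 10.56 and 9.14 to 10.39. For the other lists these means were 6.19 to 8.34 and 6.94 to 8.04 for smooth muscle, 4.79 to 5.18 and 4.74 to 4.96 for myeloid, 4.29 to 4.87 and 4.27 to 4.37 for lymphoid, 4.46 to 4.97 and 4.68 to 4.72 for mesothelial, and 5.39 to 8.31 and 4.95 to 8.88 for epithelial markers. A sex-linked probe set of EIF2S3, a translation factor gene, read 2.95 in Dal4, a male on record, whereas the 3 females had 3.08 to 3.33 and the remaining 6 males had 10.15 to 10.60. Results that rest on the males alone are therefore given with and without this dog.

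**Figure D1:**
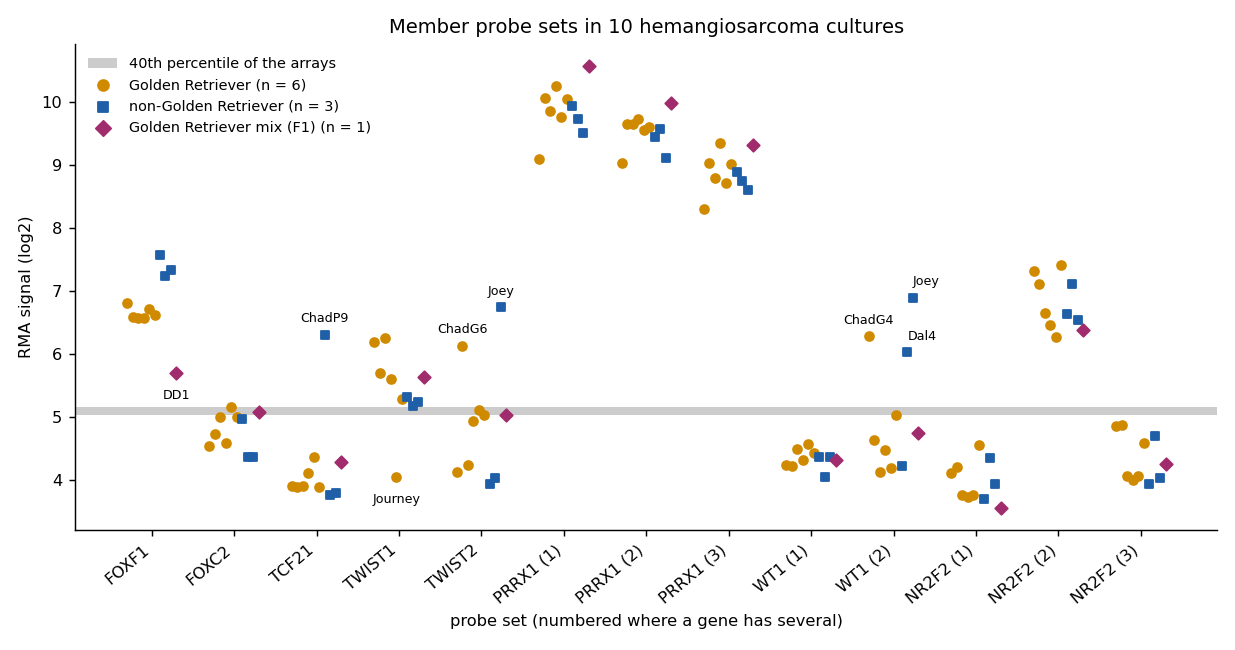
Log2 RMA signal (vertical axis) of the 13 member probe sets (horizontal axis, numbered where a gene has several) in 10 cultures, with 1 point per dog and the breed group by color and shape. The gray band spans the 40th percentiles of the arrays, 5.02 to 5.16, and the named points are the cultures that leave it alone or nearly alone, such as ChadP9 at 6.31 for TCF21, or that stand apart from the rest.

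FOXF1 separated the breed groups without overlap and put the F1 dog below all of them. Its only probe set read 6.82 in ChadG4, 6.59 in ChadG6, 6.57 in ChadG8, 6.58 in Frog, 6.72 in Journey and 6.62 in Tucker. It read 7.57 in ChadP9, 7.24 in Dal4 and 7.33 in Joey. In DD1 it read 5.70. All 10 cultures were above the 40th percentile of their arrays, the 6 Golden Retrievers lay close together, and the highest of them was 0.43 log2 units below the lowest non-Golden Retriever. The means were 6.65 ± 0.098 (SD, n = 6) and 7.38 ± 0.173 (SD, n = 3), a difference of -0.73 log2 units (SE 0.128) or a 1.66-fold higher signal in non-Golden Retrievers. This difference chose the gene, so no p-value is given. DD1 was 0.95 log2 units below the Golden Retriever mean and 1.68 below the mean of the other breeds, so this dog with a Golden Retriever parent did not lie between the groups. Counted as a non-Golden Retriever, DD1 brought the difference to -0.31 (SE 0.311). All 3 non-Golden Retrievers are male on record, Dal4 with the reservation given above, and the 3 male Golden Retrievers read 6.57 to 6.82. Among males alone the difference was -0.71 (SE 0.185), and without Dal4 as well it was -0.78 (SE 0.213).

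**Figure D2:**
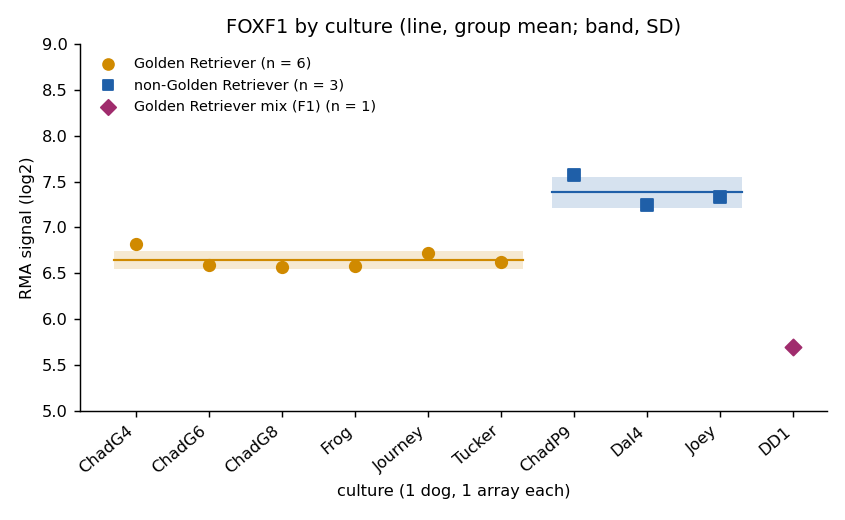
Log2 RMA signal of FOXF1 (vertical axis, not from 0) in each culture (horizontal axis), with a line at the mean of each breed group and a band of ±1 SD. The 6 Golden Retrievers sit between 6.57 and 6.82, the 3 non-Golden Retrievers between 7.24 and 7.57, and the F1 dog DD1 at 5.70.

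FOXC2, a forkhead factor of lymphatic vessels and of mesenchyme, was in the dim range in 9 of 10 cultures. It read from 4.54 to 5.16 in Golden Retrievers with a median of 4.87. The non-Golden Retrievers read 4.96 in ChadP9, 4.37 in Dal4 and 4.37 in Joey, and DD1 read 5.07. The highest culture, Journey, was the only culture above the 40th percentile of its array, the groups overlapped, and the probe set was not tested.

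The 3 basic helix-loop-helix members stood out in different dogs, TCF21 in ChadP9, TWIST1 in Journey, where it was low, and TWIST2 in ChadG6 and Joey. TCF21, a factor of splenic and epicardial mesenchyme, read 6.31 in ChadP9 and 3.75 to 4.36 in the other 9 cultures. The Golden Retrievers read from 3.88 to 4.36 with a median of 3.91, Dal4 read 3.75, Joey 3.79 and DD1 4.29. ChadP9 was thus the only culture above the 40th percentile, 1.95 log2 units over the next.

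TWIST1, a factor of cranial and limb mesenchyme, was above the 40th percentile in 9 of 10 cultures. It read 6.18 in ChadG4, 5.70 in ChadG6, 6.26 in ChadG8, 5.60 in Frog, 4.05 in Journey and 5.29 in Tucker. It read 5.32 in ChadP9, 5.17 in Dal4, 5.23 in Joey and 5.63 in DD1. Journey alone was dim, 1.12 log2 units below the next culture, while Frog, the related dog, was in the range of the others. The breed means of TWIST1 were 5.51 ± 0.804 (SD, n = 6) and 5.24 ± 0.074 (SD, n = 3), a difference of 0.27 (SE 0.428, adjusted p = 0.934 by limma). Without Journey the difference was 0.56 (SE 0.236), at an unadjusted p of 0.0425 and an adjusted p of 0.870 by limma. It was 0.14 (SE 0.426) without ChadG4 and 0.12 (SE 0.421) without ChadG8. Among males alone it was 0.67 (SE 0.294, unadjusted p = 0.0611 by limma), and without Dal4 as well it was 0.63 (SE 0.354, unadjusted p = 0.128 by limma).

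TWIST2, the paralog of TWIST1 in dermal mesenchyme, was above the 40th percentile in ChadG6 (6.14) and Joey (6.74), from different breed groups. The other Golden Retrievers read 4.13 in ChadG4, 4.24 in ChadG8, 4.93 in Frog, 5.12 in Journey and 5.03 in Tucker. ChadP9 read 3.93, Dal4 4.03 and DD1 5.04. The groups overlapped fully, and the probe set was not tested.

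PRRX1 had 3 probe sets, and all of them lay above the 40th percentile on every array. The probe set with the highest mean, the first in the plot of all members, read 9.09 in ChadG4, 10.06 in ChadG6, 9.86 in ChadG8, 10.25 in Frog, 9.77 in Journey and 10.05 in Tucker. It read 9.94 in ChadP9, 9.73 in Dal4, 9.52 in Joey and 10.57 in DD1. ChadG4 was the lowest culture on each of the 3 probe sets. DD1 was above every purebred dog on 2 of them and, on the third, just under Frog (9.32 against 9.36). The probe sets followed each other across the 10 arrays, with Pearson's r from 0.87 to 0.97. Breed differences were 0.12 (SE 0.244, adjusted p = 0.951), 0.16 (SE 0.183, adjusted p = 0.897) and 0.12 (SE 0.215, adjusted p = 0.945) by limma, each within the spread between dogs. Among males alone the first was -0.059 and the third was -0.047, and without Dal4 as well they were -0.060 and -0.049. The second probe set stayed above 0 there, at 0.056 and 0.15, so the probe sets gave no common direction.

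WT1 had the widest spread of the members represented by their brightest probe set, with an SD of 0.985 log2 units over 10 cultures. That probe set read 6.28 in ChadG4, 4.64 in ChadG6, 4.12 in ChadG8, 4.47 in Frog, 4.19 in Journey and 5.04 in Tucker. It read 4.22 in ChadP9, 6.03 in Dal4, 6.89 in Joey and 4.75 in DD1. Only ChadG4, Dal4 and Joey were above the 40th percentile of their arrays, so the cultures fell into a higher cluster of 3 and a lower cluster of 7 that crossed the breed labels. The breed difference was -0.92 (SE 0.615, adjusted p = 0.808 by limma). It was -1.22 (SE 0.528, unadjusted p = 0.0478, adjusted p = 0.688 by limma) without ChadG4. It was -1.67 (SE 0.548, unadjusted p = 0.0153, adjusted p = 0.337 by limma) without ChadP9, and only -0.33 (SE 0.630, unadjusted p = 0.611 by limma) without Joey. Among males alone it was -0.57 (SE 0.813), and without Dal4 as well it was -0.41 (SE 0.971), so its size depended on which dogs were included. The other WT1 probe set lay at 4.05 to 4.57, below the 40th percentile on all 10 arrays. It did not follow the first (r = -0.51, rho = -0.53), so the pattern of WT1 rests on 1 probe set.

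NR2F2 was above the 40th percentile of all 10 arrays on 1 of its 3 probe sets. This probe set read from 6.28 to 7.41 in Golden Retrievers with a median of 6.89, and the ends of that range were Journey and Tucker. It read 6.63 in ChadP9, 7.11 in Dal4, 6.54 in Joey and 6.38 in DD1. The difference between the breeds was 0.11 (SE 0.281, adjusted p = 0.962 by limma). The other 2 probe sets lay at 3.56 to 4.56 and at 3.93 to 4.87, in the dim range on every array, yet ordered the cultures alike (r from 0.75 to 0.89 between the 3). ChadG4, ChadG6, Tucker and Dal4 were the 4 highest cultures on each of them.

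Over the whole array 1 probe set passed the breed test at an adjusted p under 0.05, which is 0.00373% of those tested, and 0 of the 7 member probe sets did by either limma or the methods' t-test. FOXF1 alone, 1 of 7, was called by these tests where an unadjusted p under 0.05 was asked, beside 6.33% of all tested probe sets by limma. Likewise FOXF1 was the 1 of 7 whose groups did not overlap, beside 2.46% of all. Since this contrast chose FOXF1, nothing is read from those shares, and no other tested member was called. For cultures that stood apart, 0 of 13 member probe sets had a culture at least 2 log2 units from every other culture, where 0.934% of all probe sets had. At a distance of at least 1 log2 unit the count was 2 of 13, TCF21 in ChadP9 and TWIST1 in Journey, beside 4.76% of all.

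**Figure D3:**
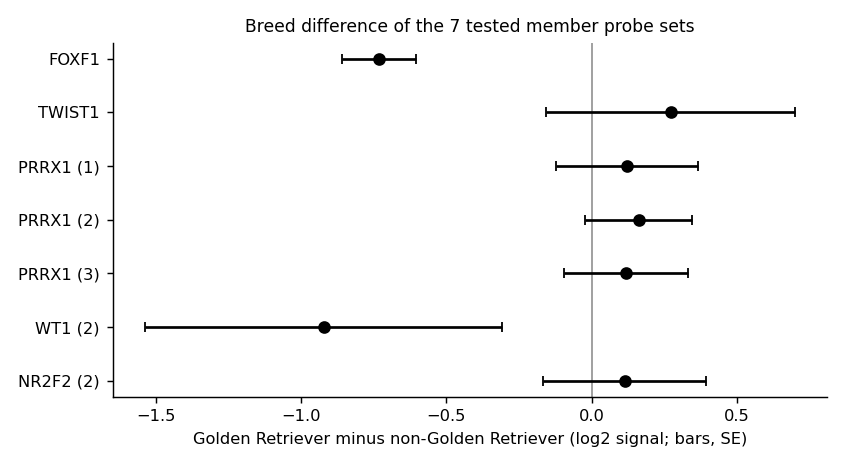
Difference of group means, Golden Retriever minus non-Golden Retriever, in log2 signal (horizontal axis, with SE bars from limma) for the 7 tested member probe sets (vertical axis). FOXF1 lies at -0.73 with a narrow bar, WT1 at -0.92 with a wide bar, and the others between 0.11 and 0.27.

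The members did not move together across the 10 arrays. With the brightest probe set standing for each gene, Pearson's r over the 28 pairs had a median of -0.18, from -0.80 for FOXC2 and WT1 to 0.48 for FOXC2 and PRRX1. Only 1 pair reached a size of 0.7. That pair, FOXC2 and WT1 (rho = -0.70), set a dim probe set against the WT1 clusters. Within the 7 lower WT1 cultures, where WT1 was dim as well, r was -0.13. All arrays were normalized together, and these correlations are a description without a test.

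FOXF1 had a median r of -0.11 with the 7 other members. Its r with PRRX1 was -0.59 (rho = -0.67) and was -0.29 over the 9 purebred dogs, the F1 dog being lowest for FOXF1 and highest for PRRX1. With FOXC2 it was -0.47 (rho = -0.53). With TCF21 it was 0.37 (rho = -0.13), and without ChadP9 and DD1, the arrays farthest from the FOXF1 median, it was -0.49. With WT1 it was 0.35 (rho = 0.38) over all arrays and 0.84 without ChadP9 and DD1. Within the 7 lower WT1 cultures, where WT1 was dim, it was -0.47. These relations of FOXF1 therefore depended on which cultures were counted. The remaining values were 0.16 with NR2F2, -0.11 with TWIST2 and -0.23 with TWIST1.

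**Figure D4:**
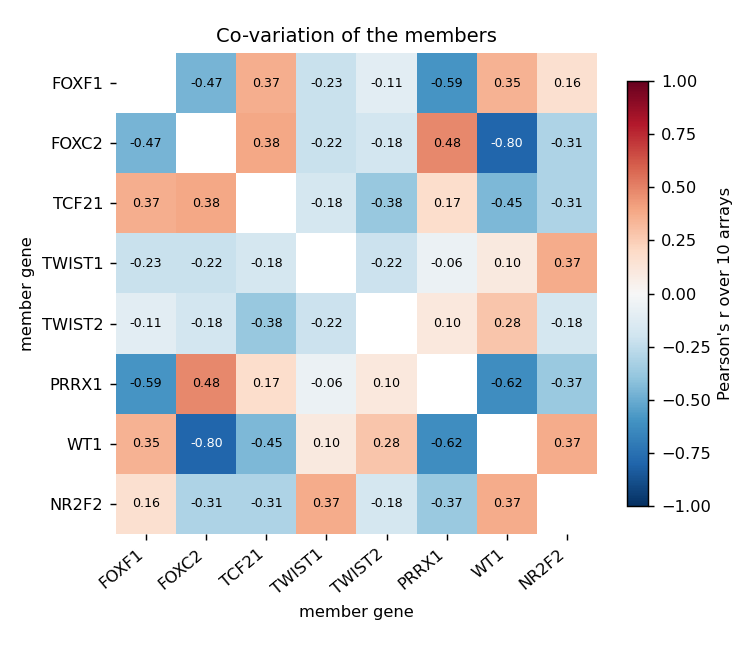
Pearson's r over 10 arrays between the 8 member genes that the array names (both axes), each by the probe set of highest mean, with red for positive and blue for negative values. The strongest cell is FOXC2 with WT1 at -0.80, and most cells are pale or blue, with a median of -0.18.

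Among 2506 named genes that varied by an SD of at least 0.5, those most like FOXF1 over the 10 arrays were PPIF, AEN, CASP8, ARHGEF12, ABCA1 and PLEKHA8, with r from 0.77 to 0.83. PPIF, the cyclophilin of the mitochondrial permeability pore, had r = 0.83 (rho = 0.88), with 8.17 in DD1 and 9.83 in ChadP9. CASP8, the caspase that starts apoptosis from death receptors, read 6.71 to 7.16 in Golden Retrievers, 7.25 in ChadP9, 8.29 in Dal4, 7.96 in Joey and 6.25 in DD1. CASP8 thus had the same order of groups as FOXF1, with the F1 dog lowest, but within the 6 Golden Retrievers its r with FOXF1 was 0.11. Within these dogs r was 0.18 for ARHGEF12, 0.26 for ABCA1 and 0.73 for PPIF. ABCA1, the exporter of cholesterol, ran from 5.32 in DD1 to 10.20 in Joey. AEN, a nuclease induced by p53, had r = 0.81 over all arrays, but within the 6 Golden Retrievers r was -0.66. PLEKHA8, a lipid transfer protein, had r = 0.77 over all arrays and 0.91 within the Golden Retrievers, where ChadG4 was highest for both genes.

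Genes opposite to FOXF1 were RCAN2, DKK1 and LMO2. RCAN2, a regulator of calcineurin, had r = -0.89 (rho = -0.84), with 5.56 to 6.41 in Golden Retrievers, 4.76 to 5.43 in non-Golden Retrievers and 6.58 in DD1. DKK1, a secreted inhibitor of Wnt signaling, had r = -0.84 (rho = -0.89) and read 9.57 to 11.69 in Golden Retrievers, 6.01 in ChadP9, 9.05 in Dal4, 7.51 in Joey and 11.51 in DD1. Both were lower in every non-Golden Retriever than in every Golden Retriever, and so was LMO2 (5.94 to 6.30 against 6.40 to 7.60). The breed groups did not overlap for 2.46% of all tested probe sets. LMO2, a cofactor of blood and vessel transcription, had r = -0.81, which was -0.38 without ChadP9 and DD1 and 0.68 within the Golden Retrievers. Since FOXF1 separates the groups, genes alike or opposite over all arrays also carry the group difference.

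The genes most opposite to WT1 were ACTG2, CD164 and TPM2, and 2 of these encode parts of the contractile apparatus, ACTG2 the smooth muscle gamma actin and TPM2 a tropomyosin. ACTG2 read 6.97 in ChadG4, 7.10 in Dal4 and 6.87 in Joey, the 3 cultures with WT1 above the 40th percentile, and 10.94 to 14.32 in the other 7. TPM2 read 12.68, 12.52 and 12.45 in ChadG4, Dal4 and Joey and 12.98 to 14.01 in the others. Over all arrays r was -0.94 for ACTG2 and -0.93 for TPM2. Because the cultures fell into separate clusters, r was also taken within the 7 lower WT1 cultures. There it was -0.72 for ACTG2, -0.70 for TPM2 and -0.33 for CD164, a sialomucin. WT1 was in the dim range in all 7 of them, and the genes were picked by r over the same arrays, so little can be read from these values.

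All 9 smooth muscle and pericyte markers had a negative r with WT1 over the 10 arrays, with a median of -0.59. Over all tested genes 48.6% were negative, and the median was 0.02. The counts of listed genes given here also take in dim genes that were not tested, so that share is not a like comparison. Smooth muscle actin ACTA2 read 6.39 in ChadG4, 9.73 in Dal4 and 12.69 in Joey, against 13.37 to 14.13 in the others. Calponin CNN1 read 5.86 in ChadG4 and 5.11 in Joey but 9.13 in Dal4, against 6.08 to 11.02 in the rest. Of the endothelial markers 9 of 13 had a negative r with WT1 (median -0.45) and of the fibroblast markers 4 of 11 did (median 0.05). The sign was not particular to smooth muscle, since 7 of 9 myeloid markers (median -0.53), 2 of 2 mesothelial markers (median -0.35) and 16 of 19 factors of limb, skin and somite mesenchyme (median -0.32) were also negative. RGS5 and NOTCH3, of the 9 smooth muscle and pericyte markers, were dim on all arrays. The part of smooth muscle content in the WT1 signal was not tested.

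**Figure D5:**
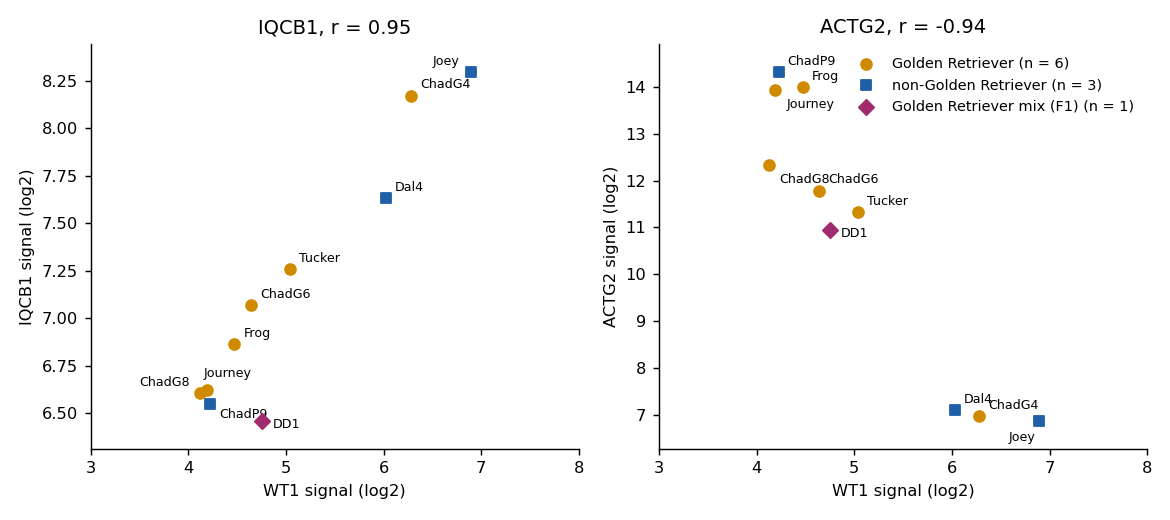
Log2 signal of WT1 (horizontal axes) against IQCB1 and ACTG2 (vertical axes, not from 0), the genes with the highest and the lowest Pearson's r, with 1 point per culture. ChadG4, Dal4 and Joey hold the high WT1 end in both panels, with ACTG2 at 6.87 to 7.10 there and at 10.94 or more in the other 7 cultures.

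On the positive side, WT1 was most like IQCB1, PARD3B, KIAA1549, SPATA7, SPSB2 and FMR1. IQCB1 and SPATA7 encode proteins of the primary cilium and its photoreceptor counterpart, and PARD3B a cell polarity protein. IQCB1 had r = 0.95 (rho = 0.78), with 8.17 in ChadG4, 7.63 in Dal4 and 8.30 in Joey against 6.46 to 7.26 in the others. Within the 7 lower WT1 cultures r was 0.65 for IQCB1, 0.77 for KIAA1549 and 0.54 to 0.63 for the other 4. These values too rest on dim WT1 signals and on genes picked by r. FMR1, an RNA-binding translation regulator, had 8.35 in ChadG4 and 8.08 in Joey, with 7.72 in Dal4 and 6.59 to 7.49 in the rest.

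For the genes beside each member on its chromosome, order was taken from the RefSeq genes of assembly UU_Cfam_GSD_1.0, and no coordinates are given because the array values name no build. FOXF1 and FOXC2 are near neighbors, with FOXL1 and MTHFSD nearby. FOXL1, a forkhead gene of gut mesenchyme, was dim in all cultures (4.16 to 4.72). MTHFSD, a folate-related gene, had a mean of 8.09 ± 0.145 in the 6 Golden Retrievers and of 8.53 ± 0.094 in the 3 dogs of other breeds (both SD), with 8.76 in DD1. The breed groups did not overlap for MTHFSD (7.88 to 8.33 and 8.42 to 8.59), beside 2.46% of all tested probe sets. Its breed difference was -0.44 (SE 0.131, adjusted p = 0.772 by limma), of the same sign as that of FOXF1, but DD1 lay at the opposite end and r with FOXF1 was 0.04. On the other side of FOXF1, IRF8 was dim (4.59 to 4.91) and COX4I1 read 12.80 to 13.37.

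Beside WT1, the translation factor subunit gene EIF3M had r = 0.74 (rho = 0.72) with it, and RCN1, a calcium-binding protein of the secretory pathway, read 8.75 in ChadG4 and 10.88 to 12.20 in the others. PAX6, the eye and pancreas factor, read 6.22 in Joey and 6.69 to 7.90 elsewhere. Over the 8 members, 30 neighboring genes had probe sets, 19 were tested, and 0 passed the adjusted breed test by limma. At an unadjusted p under 0.05 there were 3 of the 19, beside 6.33% of all tested probe sets. Their r with the member beside them had a median of -0.06, from -0.57 to 0.74.

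Several other transcription factors of splenic and visceral mesenchyme were above the dim range in all 10 cultures, HAND2, NR2F1 and MEIS2 among them. Of 20 listed genes 19 were on the array and 13 were tested. HAND2, a basic helix-loop-helix factor of heart, limb and visceral mesenchyme, read 8.70 in DD1 and 11.11 in ChadP9, the same lowest and highest cultures as for FOXF1 (r = 0.58). NR2F1, the paralog of NR2F2, read 9.57 in ChadG4 and 10.50 to 11.20 in the others, and MEIS2, a homeobox cofactor, read 8.80 in ChadG4 and 10.03 to 10.93 in the others. ChadG4 was thus lowest for PRRX1, NR2F1 and MEIS2 alike. GATA4, a zinc finger factor of heart and visceral mesoderm that is named after its values were seen, was above the 40th percentile only in ChadP9 (5.91), the culture with TCF21 signal, and read 3.44 to 4.94 in the others. In the breed contrast 10 of the 13 were higher in Golden Retrievers and 3 lower, with a median of 0.08, and 0 passed (adjusted p from 0.776 to 0.998 by limma). Over all 11111 tested genes, 53.4% were lower and the median was -0.02, and 0 of these list genes had an unadjusted p under 0.05.

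Among factors of limb, skin and somite mesenchyme, several were high in 1 or a few cultures. Of 21 listed genes 19 were on the array and 12 were tested, 8 higher and 4 lower in Golden Retrievers with a median of 0.09, and 0 passed by limma. At an unadjusted p under 0.05 there was 1, PAX1, a factor of the vertebral column (difference 0.33, SE 0.133), beside 684 of all 11111 tested genes. PRRX2, the paralog of PRRX1, read 7.23 to 8.69, with ChadG8 highest. ALX1, a homeobox factor of facial mesenchyme, read 7.33 in ChadG6 and 4.95 to 5.49 in the others. ChadG6 was also a TWIST2 culture, but Joey, where TWIST2 was highest, was the lowest for ALX1 (4.95). MSX2, a homeobox target of bone morphogenetic proteins, read 6.88 in ChadG6 and 3.78 in Journey, the culture without TWIST1 signal above the dim range. It was also dim in ChadP9 (4.18), Joey (4.19), Frog (4.71) and Dal4 (4.73), where TWIST1 was above that range. TFAP2A, a factor of neural crest and skin, ran from 5.49 in Frog to 8.51 in Joey.

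Among genes of epithelial-mesenchymal transition, 9 of 11 were tested, 6 higher and 3 lower in Golden Retrievers (median 0.13), with 0 at an adjusted and 0 at an unadjusted p under 0.05 by limma. SNAI2, a zinc finger repressor of E-cadherin, read 11.02 to 12.14 in the 10 cultures, ZEB1, another such repressor, 8.09 to 9.72, and vimentin (VIM), the intermediate filament of mesenchymal cells, 13.96 to 14.22. The keratins differed far more. KRT8 read 3.82 in ChadP9, the culture with TCF21 signal, and 9.45 to 11.67 in the others, and KRT18 ran from 3.57 in ChadG4 to 13.22 in Journey. The other epithelial markers did not follow KRT8 in ChadP9, where KRT18 read 8.40, above ChadG4, ChadG6 and Dal4, and where EPCAM (3.66) and CDH1 (3.93), both adhesion molecules of epithelium, lay within the range of the other cultures.

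Among hedgehog pathway genes, the receptor-side gene SMO read 6.44 to 7.27, GLI1, a transcriptional target and effector of the pathway, 5.51 to 6.18, and GLI3 4.66 to 5.52 over the 10 cultures. SUFU, an inhibitor of GLI proteins, read 4.87 to 6.41, and BOC, a co-receptor, 5.14 to 6.28. HHIP, a ligand-binding inhibitor that is named after its values were seen, read 6.23 in ChadG4 and 3.13 to 3.72 in the others. Of 14 listed genes 10 were on the array and 7 were tested, 4 higher and 3 lower in Golden Retrievers (median 0.07), with 0 at an adjusted or unadjusted p under 0.05 by limma. GLI1 had r = 0.10 with FOXF1.

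Of the partners and inhibitors of the basic helix-loop-helix members, 4 of 7 listed genes were tested and 5 were on the array. The E protein genes TCF4 (9.73 to 11.33) and TCF3 (5.74 to 6.78) and the inhibitors ID1 (8.69 to 10.46) and ID3 (8.62 to 11.01) were above the 40th percentile in all 10 cultures. All 4 had a higher mean in Golden Retrievers (median 0.19), and 0 had an adjusted or unadjusted p under 0.05 by limma.

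Of the other forkhead genes, 27 were listed, 23 were on the array and 15 were tested. In Golden Retrievers 5 were higher and 10 lower with a median of -0.07, beside 53.4% lower and a median of -0.02 over all tested genes, and 0 passed the adjusted test by limma. At an unadjusted p under 0.05 there was 1, FOXN2 (difference -0.60, SE 0.183), named after its values were seen, beside 684 of all 11111 tested genes. FOXM1, a cell cycle factor, ran from 4.93 in ChadP9 to 8.22 in Dal4, and FOXO1, which insulin signaling keeps out of the nucleus, read 6.99 to 8.18. Neither FOXM1 nor FOXO1 followed FOXF1 (r of -0.06 and 0.20). FOXN2 had r = 0.72 with FOXF1, and its breed groups did not overlap, beside 2.46% of all tested probe sets. It read 4.27 to 4.92 in Golden Retrievers, 5.12 to 5.29 in non-Golden Retrievers and 4.50 in DD1. FOXN2 was above the dim range only in the 3 non-Golden Retrievers, so it entered the breed test through the group where it was high. Its unadjusted p and the lack of overlap set dim signals against signals above that range. Its r with FOXF1 also rests on dim values in all other cultures, so little can be read from these results. FOXJ2 had r = 0.57 and FOXP3, dim in every culture, had r = -0.61. Over the 23 genes on the array the median r with FOXF1 was -0.06, and 14 were negative.

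Endothelial transcription factors were tested for 7 of 22 listed genes, with 15 on the array. In the breed contrast 5 were higher and 2 lower in Golden Retrievers, with a median of 0.44, and 0 passed by limma. ERG and LMO2 had an unadjusted p under 0.05, beside 684 of all 11111 tested genes. ERG, a factor that maintains endothelial identity, read 4.80 in Joey, 5.12 in Dal4, 5.69 in Tucker and 5.88 in ChadG4, and 6.27 to 6.93 in the others, so that the 3 cultures with WT1 were among its 4 lowest. LMO2 read 8.46 in DD1 and 7.60 in ChadG4 against 5.94 to 6.78 in the others.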

How the data were processed

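The authors deposited RMA log2 signals (computed with affy) for all probe sets of 10 Affymetrix arrays, normalized together, with control probe sets still present. RMA pulls arrays to 1 common distribution and compresses differences of dim probe sets. Tool versions and a genome build were not given in the sources used here. The 111 control probe sets were removed. Probe sets were named from the platform annotation, which names 1 gene for 29254, several for 439 and none for 13231, and those with several were not used for names. FOXC2 and TWIST1 were matched to RefSeq by symbol.

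The 26787 probe sets that exceeded the 40th percentile on 3 or more of the 9 purebred arrays were fitted with limma 3.58.1 in R 4.3.3 as Golden Retriever minus non-Golden Retriever, without the F1 dog, two-sided, with Benjamini-Hochberg adjustment over all of them. The script was tested on simulated data. The number of arrays limits the precision, and nothing gives technical replicates. Correlations used all 10 arrays and Python 3.11.15. The members and lists were chosen with earlier results of these data known. Named genes were all members, the 6 genes most and 3 least like FOXF1 and the member of largest SD, 2 neighbors on each side of a member, and, per list, genes past the test and up to 4 of highest mean and 4 of largest SD. Exceptions are marked in the text, and PECAM1 is given as a defining marker. Sex was taken from the study's signalment. Alternatives were other filters, centering, the F1 dog in either group or its own, the methods' t-test, each dog left out, rank correlation and other probe sets, and, chosen after seeing the data, males only with and without Dal4 and all dogs but Dal4 and ChadG4. DNA and protein sequences were not used here.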

Additional observations from a re-analysis of the deposited data

Results flagged for a closer look

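Within the 6 Golden Retrievers, a culture was singled out where its gap to the next, divided by the range of the group, passed 0.625 (Dixon's critical value for 6 samples). Of 87 probe sets tested this way, 13 passed. Chance passes about 1 in 20 independent groups, but the probe sets were partly chosen for a wide spread or for likeness to FOXF1 or WT1 and share their cultures, so that rate is no comparison for the 13. ChadG4 was the culture in 8 of them. It was lowest for 1 PRRX1 probe set (the second in the plot of all members, 9.03 against 9.55 to 9.73, ratio 0.747), for NR2F1 (9.57 against 10.83 to 11.20, ratio 0.774), for MEIS2 (8.80 against 10.26 to 10.93, ratio 0.687), for RCN1 (8.75 against 11.65 to 12.20, ratio 0.842) and for ACTA2 (6.39 against 13.37 to 14.13, ratio 0.901). It was highest for PLEKHA8 (8.33 against 7.50 to 7.78, ratio 0.665), for LMO2 (7.60 against 6.40 to 6.78, ratio 0.687), and for HHIP (6.23 against 3.38 to 3.54, ratio 0.944). ChadG6 was highest for ALX1 (7.33 against 5.08 to 5.49, ratio 0.818), and Tucker was lowest for SUFU (4.87 against 5.55 to 5.75, ratio 0.766) and for LUM, the collagen-binding lumican (12.47 against 13.79 to 14.08, ratio 0.82). Tucker was highest for EPCAM (8.03 against 3.79 to 4.72, ratio 0.782) and for GATA4 (4.94 against 3.56 to 3.76, ratio 0.854). Outside the Golden Retrievers, LUM read 4.40 in Dal4, in the dim range, and EPCAM read 8.87 in Joey. Only 1 member probe set, that of PRRX1, passed.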

How the results depend on the processing

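Of the values that answer a comparison, 82 kept their direction and stayed near the reported value under the alternatives and 15 moved. Some of them, and of the single members below, could not have moved. Other filters, the methods' t-test and the F1 dog as its own group leave a difference of group means unchanged. The tally also includes FOXF1, which was chosen on this contrast, so it is no measure of robustness. Among single tested members 110 kept their sign and their side of the threshold and 6 reversed, but many of the 110 changed in size, as WT1 (-0.92) did from -1.67 to -0.33, TWIST1 (0.27) from 0.10 to 0.67, NR2F2 (0.11) from 0.0026 to 0.54 and probe set 2 of PRRX1 (0.16) from 0.0093 to 0.36. The count of all probe sets at an adjusted p under 0.05, 1 as reported, was 0 with the F1 dog counted as a non-Golden Retriever, 2 by the methods' t-test and 2 without Dal4 and ChadG4. Leaving out each dog gave 1 to 2, with 2 without Joey. The count of members at an unadjusted p under 0.05, 1 as reported, was 0 with the F1 dog as a non-Golden Retriever and 2 without Dal4 and ChadG4, where PRRX1 was added. Leaving out each dog gave 1 to 2, with 2 without ChadG4 or ChadP9, each adding WT1, and 2 without Journey, adding TWIST1. The count of members whose groups did not overlap, 1 as reported, was 0 with the F1 dog as a non-Golden Retriever, 2 without Dal4 and ChadG4, adding PRRX1, and 2 among males without Dal4, adding NR2F2. Fewer dogs make such separation easier by construction. The FOXF1 difference was -0.87 with the F1 dog as a Golden Retriever, -0.31 with it as a non-Golden Retriever, and -0.80 to -0.64 with each dog left out. The count of members with a culture apart went from 0 at 2 log2 units to 2 at 1 log2 unit. PRRX1 reversed to -0.091 on probe set 1 and -0.025 on probe set 3 with the F1 dog as a non-Golden Retriever, to -0.059 and -0.047 among males, and to -0.060 and -0.049 among males without Dal4. The cause was not tested. No paired analysis was possible because each culture came from a different dog and the design holds no pairs between the groups. Dim probe sets (FOXC2, TCF21, TWIST2, 1 of WT1 and 2 of NR2F2) limit what can be said of their genes, and a difference that did not pass is not shown to be absent with 6 dogs against 3.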
